A study of Mus musculus with 13 samples.

Results

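Myc and the genes of ribosome biogenesis were followed on 13 arrays of RNA from cultured mouse prostate progenitor/stem cells given 1,25-dihydroxyvitamin D3, written 1,25D below, or its solvent. The group is a list of 46 genes chosen by name: Myc, subunits and factors of RNA polymerase I, small nucleolar ribonucleoproteins and assembly factors of both ribosomal subunits. Each gene was taken from the probe set with its symbol that had the highest mean signal over the 13 arrays, and 45 of the 46 were measured in this way among 18193 named genes. Mrto4 was not analysed here, because its probe set carries several gene symbols. All cells came from a culture at passage 22 that was started from 10 wk old mice described as wild-type B1/6; 127/SVEV. The groups were 100 nM 1,25D for 48 h (4 arrays), vehicle (0.1% ethanol) for 48 h (3 arrays), 100 nM 1,25D for 6 h (3 arrays) and vehicle for 6 h (3 arrays). The medium was renewed daily in the 48 h cultures. Nothing in the labels says whether replicates were separate cultures, so p-values measure only the spread between these arrays, which may be technical.

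Ribosomes are made in the nucleolus. RNA polymerase I copies the ribosomal DNA, small nucleolar RNA particles methylate and pseudouridylate the transcript, and a large set of assembly factors folds, cuts and packs it into the 40S and 60S subunits. Myc, a transcription factor that pairs with Max on DNA, is known to raise the expression of many of these genes in growing cells, and the sequence CACGTG, the canonical E-box, is its best known binding sequence.

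The E-box was looked for in the RefSeq promoter windows (GRCm38.p6) of the members, from 250 bases before the annotated start to 50 bases after it. The motif reads the same on both strands. Of the 40 measured members with a window in the table, 8 held CACGTG, or 20%, against 8.1% of 27025 genes in the whole table and 8.9% of 17492 protein-coding genes. In 6 members it lay after the start and in 2 before it. Those 2 are 5% of the 40, against 6.9% of all genes of the table and 7.6% of protein-coding genes with an E-box before the start. The higher share of members was thus not seen before the start. Those 8 sites are shown in 30-base windows, because they are where the best known sequence of Myc meets genes of this group; capitals mark the E-box, and the strand is that of the gene.
Nop2 (chr6:125131811-125131840, plus strand): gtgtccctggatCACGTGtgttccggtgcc
Grwd1 (chr7:45830740-45830769, minus strand): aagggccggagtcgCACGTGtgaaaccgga
Tsr1 (chr11:74898092-74898121, plus strand): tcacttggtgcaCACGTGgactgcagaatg
Nle1 (chr11:82908355-82908384, minus strand): tcggttctcctcCACGTGgggacgcaggat
Imp4 (chr1:34439696-34439725, plus strand): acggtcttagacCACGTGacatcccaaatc
Wdr43 (chr17:71616220-71616249, plus strand): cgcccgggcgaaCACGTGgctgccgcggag
Pes1 (chr11:3963965-3963994, plus strand): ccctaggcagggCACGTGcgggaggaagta
Pno1 (chr11:17211540-17211569, minus strand): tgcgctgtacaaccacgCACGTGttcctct
In Nop2 the E-box began 60 bases before the start. The whole upstream stretch of that promoter is printed, since Nop2 gave the smallest p of any member over time in culture.
Nop2 (chr6:125131633-125131882, plus strand): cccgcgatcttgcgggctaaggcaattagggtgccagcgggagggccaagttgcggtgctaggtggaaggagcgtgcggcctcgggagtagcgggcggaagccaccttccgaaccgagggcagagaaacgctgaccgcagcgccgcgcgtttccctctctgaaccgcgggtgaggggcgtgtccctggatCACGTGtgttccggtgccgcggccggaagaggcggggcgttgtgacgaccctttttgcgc
Imp4 held it 121 bases before the start, and its upstream stretch is given for the same reason, as the other member with an upstream E-box.
Imp4 (chr1:34439579-34439828, plus strand): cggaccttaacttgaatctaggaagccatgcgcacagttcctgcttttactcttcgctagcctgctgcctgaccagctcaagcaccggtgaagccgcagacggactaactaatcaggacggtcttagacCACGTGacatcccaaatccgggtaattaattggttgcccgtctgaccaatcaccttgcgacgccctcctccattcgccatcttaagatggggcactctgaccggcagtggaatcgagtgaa
A match is a description of these letters and does not show that Myc binds there. All 8 members with an E-box were lower at 48 h than at 6 h in vehicle, but so were 37 of the 40 members with a window, so the count does not set them apart.

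All members were bright on the arrays. Their mean signals, on the log2 scale of the authors' table, ran from 8.05 to 13.17 and lay between the 77.6 and 99.5 percentiles of all probe sets. Here and for the markers below, the brightest probe set of each gene was ranked against all probe sets, which favours high percentiles. The basal keratins Krt5 and Krt14 and the progenitor-associated Krt6a and Cd44 were above the 98 percentile, as were the luminal keratins Krt8 and Krt18, whereas Pbsn, a secretory product of the mature prostate, was at the 5.9 percentile and the progenitor marker Sox2 at the 1.6 percentile. Immune markers reached at most the 67.1 percentile and endothelial markers at most the 51.3 percentile. Of 12 stromal markers only Vim (96.3 percentile) was above the 90 percentile. These are the high and low ends of mixed lists: 5 of 10 basal, 5 of 10 luminal and 2 of 6 progenitor markers passed the 90 percentile, and basal Krt15 was at 69.4, luminal Hoxb13 at 31.1 and progenitor Kit at 65.5. The fourth array of 1,25D at 48 h and the first of vehicle at 6 h stood apart in spread, with interquartile ranges of 2.95 and 3.03 (log2) against 3.27 to 3.46 on the other arrays, and counts without these 2 arrays are given where they bear on a result.

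Myc was the only member that passed the test with 1,25D, and it did so at 6 h. After 6 h its log2 signal was 10.03, 10.10 and 10.23 in 1,25D cultures, against 10.59, 10.88 and 10.68 in vehicle cultures. Every treated array lay below every vehicle array, and the means were 10.12 ± 0.103 with 1,25D and 10.72 ± 0.149 with vehicle (SD, n = 3 each). The log2 change was -0.60 (SE 0.103), a 1.52-fold lower signal, with an adjusted p of 0.0124 in the limma fit over all probe sets. Of all named genes, 0.165% were called lower at this time, that is, at an adjusted p under 0.05. A two-sided exact permutation test of the difference gave p = 0.1, the smallest value that 3 against 3 arrays allow. The call was lost when only the 6 h arrays were fitted (adjusted p = 0.205) and without the first (0.0915) or the second (0.0532) 1,25D array or the second vehicle array (0.0576) of that time, with log2 changes between -0.66 and -0.52 when any single array was left out. In bulk RNA like this, fewer cells of a type and less RNA per cell cannot be told apart.

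At 48 h the sign of the Myc difference was the opposite. The log2 signal was 10.66, 10.78, 10.53 and 10.54 in 1,25D cultures, against 10.35, 10.39 and 10.47 in vehicle cultures. All treated arrays were above all vehicle arrays, but the step was small. The change of 0.22 (95% interval 0.02 to 0.43) did not pass the limma test (adjusted p = 0.633), and the exact permutation test gave p = 0.0571, the smallest value that 4 against 3 arrays allow. The difference between the responses at 48 h and 6 h was itself tested and was 0.82 (SE 0.141, adjusted p = 0.0217), where 0.346% of all named genes were called in that direction and 0.286% in the other. This call did not hold with each array centred on its median (adjusted p = 0.057), nor without 1,25D 48 h replicate 1 (0.062), vehicle 48 h replicate 1, 2 or 3 (0.0726, 0.071 and 0.0515) or 1,25D 6 h replicate 1 or 2 (0.0844 and 0.0586). By mean level the order was vehicle 6 h, 1,25D 48 h (10.63 ± 0.118, SD, n = 4), vehicle 48 h (10.40 ± 0.057, SD, n = 3) and 1,25D 6 h. The arrays of 1,25D 48 h and vehicle 6 h overlapped, and no others that stand next to each other in this order did.

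**Figure D1:**
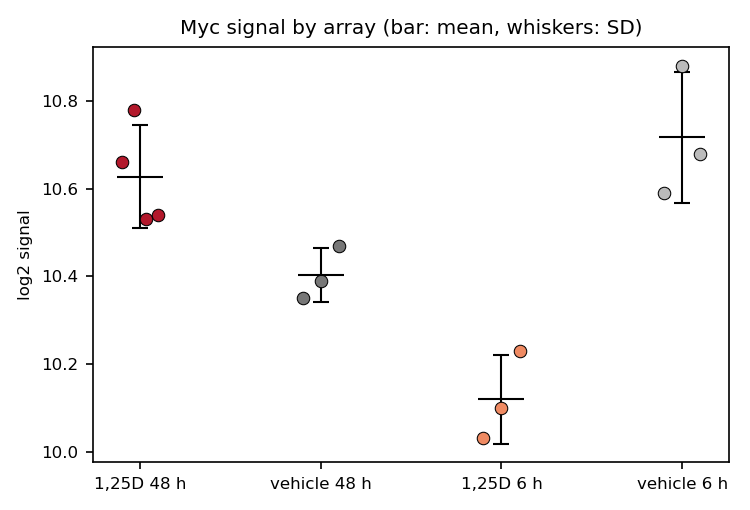
Log2 signal of Myc on each array (points) in the 4 groups, with the group mean (long bar) and SD (whiskers). The 1,25D arrays at 6 h, from 10.03 to 10.23, lie below all others, and the 1,25D arrays at 48 h, from 10.53 to 10.78, lie above vehicle at 48 h, from 10.35 to 10.47; the vertical axis does not start at 0.

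The genes of ribosome biogenesis did not pass the test with 1,25D at 6 h. Of the other 44 members 0 were called in either direction by limma. Among named genes, 0.165% were called lower and 0.687% higher, shares so small that a count of 0 does not set the members apart. Of the 44, 2 members had an unadjusted p under 0.05. These were Ubtf, which encodes the factor that binds and opens ribosomal DNA (-0.44, SE 0.156, adjusted p = 0.559), and Nop2, an rRNA methyltransferase (-0.31, SE 0.11, adjusted p = 0.552). The other Ubtf probe set, which was dimmer, changed by 0.07 at 6 h (adjusted p = 0.985 in limma). Without the 2 arrays that stand apart, Myc was again the only member called. The median log2 change over the 45 members was -0.10, against -0.02 over all named genes, and 36 of the 45 were below 0, against 9969 of 18193. Without the second 1,25D array of that time the members' median was -0.03. Of the 54 further probe sets of the members, 28 had the same sign as the chosen set at 6 h and 26 the opposite sign. Treated arrays lay wholly below vehicle arrays in 7 of the 45 members, against 4.51% of all named genes. They lay wholly above in 0, against 5.68%. The 7 were Myc, Ubtf, Nop2, Rrp9, Nolc1, Polr1c and Gnl3.

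The array values show how small these steps were. Ubtf read 9.66, 9.53 and 9.53 with 1,25D at 6 h, against 9.90, 10.00 and 10.14 with vehicle. For Nop2 the signals were 10.43, 10.35 and 10.39 with 1,25D, against 10.51, 10.88 and 10.72 with vehicle. Both were lower on every treated array, though by less than Myc. Nolc1, which escorts nucleolar particles, had 10.93, 10.80 and 10.98 with 1,25D, against 10.99, 11.42 and 11 with vehicle. Rrp9, a protein of the U3 particle, had 9.99, 9.57 and 10.00 with 1,25D, against 10.15, 10.03 and 10.12 with vehicle. Here the groups came within 0.1 of each other, and neither gene was called (adjusted p = 0.895 for Nolc1 and 0.961 for Rrp9). Among members with the most positive changes, Polr1b, the second largest polymerase I subunit, read 8.53, 8.71 and 8.93 with 1,25D, against 8.31, 8.67 and 8.74 with vehicle. Pno1, a late 40S maturation factor, read 11.03, 10.80 and 11.10 with 1,25D, against 11.01, 11.01 and 10.48 with vehicle. In both the groups overlapped, and the change of either was 0.15.

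Nucleophosmin, nucleolin and fibrillarin, 3 well-known nucleolar proteins, had small changes on their chosen probe sets at 6 h. Npm1, which encodes nucleophosmin, the chaperone of histones and ribosomal proteins, read 13.32, 13.46 and 13.38 with 1,25D, against 13.46, 13.38 and 13.22 with vehicle, and its change had a 95% interval of -0.14 to 0.21. A second Npm1 probe set of equal mean signal changed by 0.32 (adjusted p = 0.696). Ncl, the gene of nucleolin, read 13.24, 13.44 and 13.39 with 1,25D, against 13.32, 13.48 and 13.32 with vehicle (interval -0.16 to 0.11). Its further probe sets, all dimmer, disagreed in sign, with changes of 0.39, -0.10, -0.28 and 0.25 (adjusted p = 0.971 in limma for each). Fbl, the ribose methyltransferase fibrillarin, read 12.10, 11.97 and 12.23 with 1,25D, against 12.16, 12.06 and 12.20 with vehicle (interval -0.23 to 0.14). On the chosen probe sets the groups overlapped in all 3 genes. Over the 45 members, the interval lay wholly within a log2 change of 0.5 (1.41-fold) up or down in 32, and wholly within a 2-fold change in all 45.

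At 48 h of 1,25D, 0 of the 45 members were called by limma, where 0.951% of named genes were called lower and 1.43% higher, and 4 had an unadjusted p under 0.05. Imp4, a partner of the U3 particle in the 40S precursor, was lowest with a log2 change of -0.39 (SE 0.118, adjusted p = 0.214). Its signals were 8.88, 8.73, 8.94 and 8.53 with 1,25D, against 9.06, 9.30 and 9.12 with vehicle, so the groups did not overlap. Ubtf (-0.32, adjusted p = 0.705), Bop1, a subunit of the PeBoW complex that matures the 60S precursor (-0.26, adjusted p = 0.684), and Myc were the others. Ubtf had 9.02, 8.55, 8.90 and 8.96 with 1,25D, against 8.86, 9.24 and 9.43 with vehicle, and Bop1 had 9.13, 8.94, 9.10 and 8.77 with 1,25D, against 9.10, 9.27 and 9.35 with vehicle. In both the groups overlapped, with 3 of the 4 treated arrays above the lowest vehicle array for Ubtf and 2 at or above it for Bop1. On further probe sets of these genes the 48 h changes were -0.07 and -0.01 for Imp4, -0.03 for Ubtf and -0.15 for Bop1. Of these sets 0 were called. Bysl, a 40S assembly factor, had 9.40, 9.65, 9.50 and 9.44 with 1,25D, against 9.46, 9.37 and 9.30 with vehicle, a change of 0.12. Polr1a, the largest polymerase I subunit, had 8.26, 8.51, 8.31 and 8.32 with 1,25D and 8.22 on each of the 3 vehicle arrays, a change of 0.13 (adjusted p = 1).

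As a group the members sat slightly below vehicle at 48 h. The median change was -0.10, against -0.00 over all named genes, and 37 of 45 members were below 0, against 9235 of 18193. Of the 54 further probe sets of the members, 37 had the same sign as the chosen set at 48 h and 17 the opposite sign. The median signal of the 44 members other than Myc was 9.17, 9.10, 9.10 and 9.10 on the 1,25D arrays, against 9.18, 9.30 and 9.30 on the vehicle arrays. These ranges did not overlap but nearly met. Single members rarely separated: treated arrays lay wholly below vehicle in 4 of 45 (Imp4, Rrp12, Nolc1 and Ncl), against 7.11% of all named genes. They lay wholly above in 2 (Myc and Polr1a), against 5.47%. The 95% interval lay within a log2 change of 0.5 in 37 members and within a 2-fold change in all 45. Some cell type markers were called with 1,25D at 48 h, where 1.43% of named genes were called higher and 0.951% lower. Of 10 luminal markers 1 was higher and 3 lower, and 1 of 6 progenitor and 1 of 9 immune markers were higher. At 6 h 2 of 10 luminal markers were called higher, against 0.687% of named genes. The part of these markers in the members' values was not tested. Proliferation genes, listed for comparison, had a median change of -0.19 with 1 of 17 called, the cyclin gene Ccna2 (-0.39, adjusted p = 0.0446), which was not called without the 2 arrays that stand apart; their part in the members' values was not tested.

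**Figure D2:**
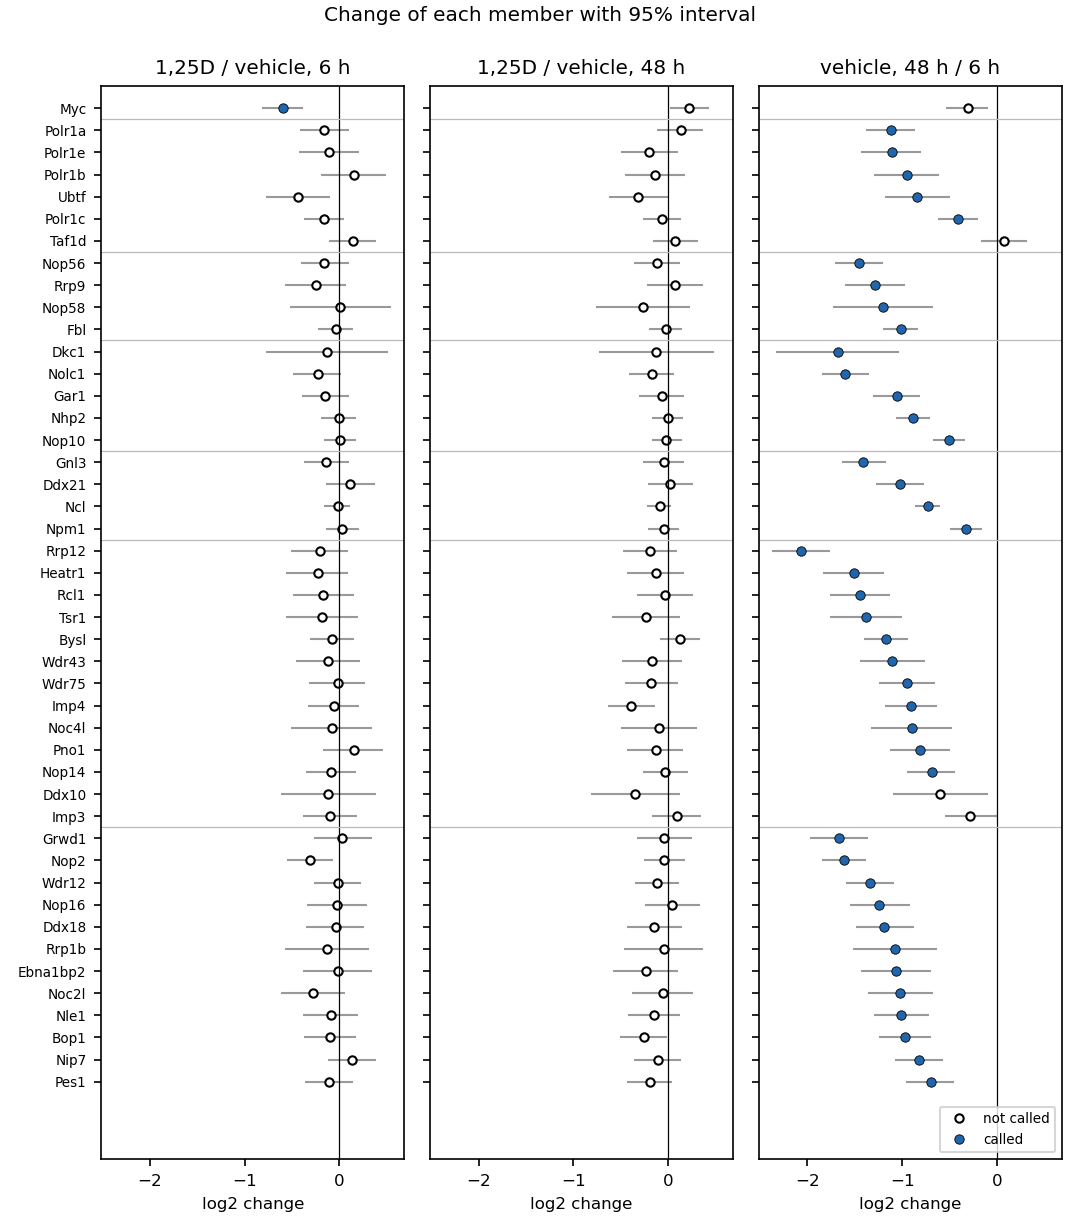
Log2 change of each of the 45 members (rows, grouped by role) for 1,25D over vehicle at 6 h, 1,25D over vehicle at 48 h, and vehicle at 48 h over vehicle at 6 h, with 95% intervals from limma; filled points passed an adjusted p of 0.05. Myc is the only filled point in the first panel, the middle panel has 0, and the last panel has 41, all below 0.

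The larger differences in these genes were between times in culture. In vehicle cultures, 41 of the 45 members were lower at 48 h than at 6 h and 0 were higher, where 8.75% of all named genes were called lower and 9.84% higher. The median log2 change over the members was -1.02, a 2.03-fold lower signal, against -0.03 over all named genes, and 26 of the 41 fell at least 2-fold. Arrays at 48 h lay wholly below those at 6 h in 43 members, against 15.2% of all named genes. They lay wholly above in 0, against 15.8%. Without the 2 arrays that stand apart, 42 were called lower. Hours in culture cannot be told apart from a day of processing, and the same arrays also carried lower proliferation genes, as given below. Markers of cell type moved between the same arrays: 3 of 10 basal markers were higher and 0 lower, 4 of 10 luminal markers were higher and 1 lower, and 2 of 6 progenitor markers were higher and 2 lower. The luminal keratin Krt19 (2.02) and the progenitor markers Kit (3.59) and Psca (2.36) rose, and Cd44 (-0.45) fell. The lowest changes were -1.06 among luminal and -0.80 among progenitor markers. Their part in the members' change was not tested.

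In the polymerase I group 5 of 6 members fell. Polr1a read 8.22 on each of the 3 arrays at 48 h, against 9.16, 9.53 and 9.34 at 6 h, a log2 change of -1.12 (SE 0.121, adjusted p = 3.09e-05). Polr1e (-1.11), Polr1b (-0.95), Ubtf (-0.84) and Polr1c, a subunit shared with RNA polymerase III (-0.41, adjusted p = 0.0134), fell as well. Polr1b had 7.62, 7.54 and 7.70 at 48 h, against 8.31, 8.67 and 8.74 at 6 h, with a clear gap between the groups. Taf1d, a subunit of the promoter selectivity factor of polymerase I, stood apart at 0.07 (adjusted p = 0.846), but its 7 probe sets disagreed. 4 of the 6 others, which were dimmer, were called lower, with log2 changes from -2.06 to -0.98.

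All 4 members tied to box C/D particles, which guide ribose methylation, fell. Nop56, a scaffold of the particle, read 10.23, 10.48 and 10.05 at 48 h, against 11.60, 11.82 and 11.71 at 6 h (-1.46, SE 0.119, adjusted p = 2.86e-06). Fbl read 11.03, 11.15 and 11.21 at 48 h, against 12.16, 12.06 and 12.20 at 6 h, and was 2.02-fold lower (adjusted p = 4.27e-06). In both, more than 0.8 log2 units separated the nearest arrays of the groups. Rrp9 (-1.29) and the second scaffold Nop58 (-1.20) fell too. Nop58 was the noisiest of them, with 8.83, 9.45 and 8.97 at 48 h, against 10.36, 10.43 and 10.06 at 6 h (SE 0.246, adjusted p = 0.00462).

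The 5 members of the box H/ACA group, whose particles convert uridine to pseudouridine, fell by unequal amounts. Nolc1 read 9.49, 9.59 and 9.53 at 48 h, against 10.99, 11.42 and 11 at 6 h (-1.60, SE 0.117, adjusted p = 1.1e-06). Dkc1, the pseudouridine synthase dyskerin, had the largest change of the group but wide spread at 6 h, with 8.45, 8.37 and 8.52 at 48 h, against 10.78, 9.44 and 10.15 at 6 h (-1.68, SE 0.301, adjusted p = 0.00177). Gar1 (-1.06), Nhp2 (-0.89) and Nop10 (-0.51), its partners in the particle, fell less. Nhp2 had 11.59, 11.82 and 11.60 at 48 h, against 12.54, 12.69 and 12.44 at 6 h, and Nop10 had 12.08, 11.94 and 11.93 at 48 h, against 12.35, 12.53 and 12.60 at 6 h. In neither did the groups overlap.

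Of the abundant nucleolar proteins, all 4 genes fell. Gnl3, the GTPase nucleostemin of proliferating and stem cells, read 10.09, 10.32 and 9.94 at 48 h, against 11.47, 11.56 and 11.54 at 6 h (-1.41, SE 0.109, adjusted p = 1.82e-06). Ddx21, an RNA helicase of the nucleolus, read 9.0, 9.21 and 9.24 at 48 h, against 10.23, 10.17 and 10.12 at 6 h (-1.02). Ncl read 12.61, 12.65 and 12.65 at 48 h, against 13.32, 13.48 and 13.32 at 6 h (-0.73, SE 0.0627, adjusted p = 4.48e-06). Replicates of Ncl were tight on this probe set, so that this smaller step was among the clearest. Its size differed on the other Ncl probe sets, which were dimmer. They changed by -0.50 (adjusted p = 0.394 in limma), -0.76 (0.000541), -1.91 (1.09e-05) and -0.78 (0.0539). Npm1 moved least of the 41, with 13.06, 13.15 and 12.87 at 48 h, against 13.46, 13.38 and 13.22 at 6 h, a 1.25-fold lower signal (adjusted p = 0.0142). The 10 brightest members had a median log2 change of -0.62, against -1.08 over the other 35. Over all 45 members, the Spearman correlation of mean log2 level and this log2 change was 0.26. A fall could be understated near the top of the array's range, so the smaller steps of bright genes such as Npm1, Ncl, Nop10 and Nhp2 are uncertain in size. The part of brightness was not tested.

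In the 40S branch 11 of 13 members fell. Rrp12, which helps precursors leave the nucleus, gave the largest change of all members: 7.34, 7.52 and 7.30 at 48 h, against 9.22, 9.72 and 9.42 at 6 h (-2.07, SE 0.141, adjusted p = 5.29e-07), a 4.19-fold lower signal. Bysl read 9.46, 9.37 and 9.30 at 48 h, against 10.41, 10.58 and 10.66 at 6 h (-1.17, SE 0.106, adjusted p = 7.12e-06). Heatr1, an early factor of the small subunit processome, read 9.04, 8.83 and 8.94 at 48 h, against 10.17, 10.58 and 10.60 at 6 h (-1.51). All 3 separated by over 0.9 log2 units between the nearest arrays. Imp4 had 9.06, 9.30 and 9.12 at 48 h, against 10.06, 10.02 and 10.11 at 6 h (-0.91), and Pno1 had 9.97, 10.22 and 9.87 at 48 h, against 11.01, 11.01 and 10.48 at 6 h (-0.81). Rcl1 (-1.45), Tsr1 (-1.38), Wdr43 (-1.11), Wdr75 (-0.95), Noc4l (-0.90) and Nop14 (-0.69) were the other falls. Ddx10, an RNA helicase (-0.60, adjusted p = 0.137), and Imp3, a partner of Imp4 (-0.28, adjusted p = 0.237), did not pass the test.

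In the 60S branch all 12 measured members fell, from -0.70 to -1.67. Nop2 gave 9.0, 9.14 and 9.13 at 48 h, against 10.51, 10.88 and 10.72 at 6 h (-1.61, SE 0.11, adjusted p = 5.21e-07). Grwd1, a ribosomal protein chaperone, gave 9.14, 9.17 and 9.15 at 48 h, against 10.97, 10.66 and 10.83 at 6 h (-1.67, SE 0.142, adjusted p = 4.48e-06). Both were at least 3-fold lower, with no array near the other group. The PeBoW complex fell as a whole: Wdr12 read 8.69, 8.65 and 8.63 at 48 h, against 10.08, 10.09 and 9.82 at 6 h (-1.34, SE 0.116, adjusted p = 4.84e-06), and Bop1 read 9.10, 9.27 and 9.35 at 48 h, against 10.06, 10.35 and 10.23 at 6 h (-0.97). Pes1, the third subunit, changed by -0.70, the least of the branch. Nop16 had 9.24, 9.48 and 9.52 at 48 h, against 10.67, 10.89 and 10.39 at 6 h (-1.24), and Nip7 had 9.97, 10.14 and 9.94 at 48 h, against 11.08, 10.85 and 10.60 at 6 h (-0.82). Ddx18 (-1.19), Rrp1b (-1.08), Ebna1bp2 (-1.07), Noc2l (-1.02) and Nle1 (-1.01) made up the rest.

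Choice of probe set mattered for some of these calls. Over the 32 members with several probe sets there were 54 further sets; 46 had the same sign over time in vehicle and 26 of those were called too. The median-ranked probe set of each gene was also used in place of the brightest. Where a gene had an even number of sets, this was the dimmer of the middle pair. In that setting 30 members were called lower. Bop1 (-0.25), Heatr1 (-0.55), Imp4 (-0.40), Nip7 (-0.28), Polr1a (-0.27) and Ubtf (-0.41) were no longer called among the members whose array values are given. 8 members, among them Fbl, Nop56, Gar1 and Nhp2, were represented by probe sets open to more than 1 transcript. When such sets were left out, 38 members were called lower. Gar1 and Tsr1 had only such sets, so they dropped out of that count.

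**Figure D3:**
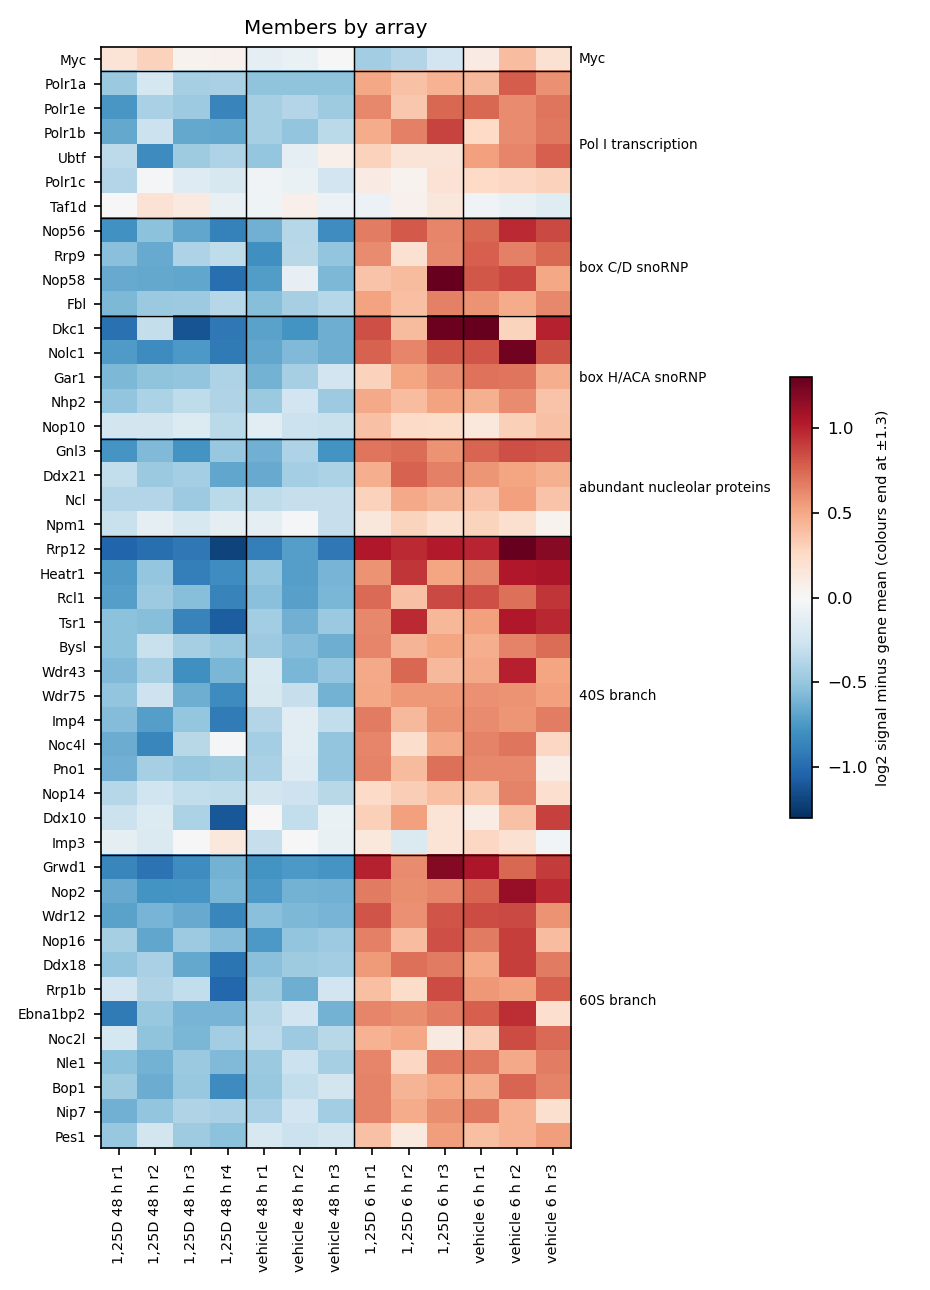
Log2 signal of the 45 members (rows, grouped by role) on the 13 arrays (columns, r for replicate), each minus the gene's mean over all arrays; red is above and blue below that mean. Both 48 h groups are blue and both 6 h groups red for nearly all members, while Myc is lowest in 1,25D at 6 h, and Taf1d and Imp3 show little change.

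Myc itself moved little over the same time in vehicle. It averaged 10.40 ± 0.057 at 48 h and 10.72 ± 0.149 at 6 h (SD, n = 3 each), a log2 change of -0.31 (95% interval -0.54 to -0.09, adjusted p = 0.066). Arrays of the groups did not overlap, the exact permutation test gave p = 0.1, the smallest possible value, and the change was called without vehicle 6 h replicate 1 (-0.38, adjusted p = 0.0403), with array weights (adjusted p = 0.0294) and without the dimmest 40% of probe sets (adjusted p = 0.0403). The ribosome biogenesis genes were also lower at 48 h with 1,25D, a contrast not tested by itself. Their median signal was 9.10 to 9.17 on the 1,25D arrays at 48 h, against 10.35 to 10.41 on those at 6 h, while on vehicle arrays it was 9.18 to 9.30 at 48 h, against 10.41 to 10.57 at 6 h. In the test of the difference between the responses to 1,25D at 48 h and 6 h, which equals that between the time courses with and without 1,25D, 0 of these 44 genes were called by limma and 0 had an unadjusted p under 0.05.

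Of 15 measured genes of the Myc network, its partners and antagonists, 5 were higher and 0 lower at 48 h than at 6 h in vehicle, where 9.84% of all named genes were called higher and 8.75% lower. The other 10 did not pass the test. Mxd4 (1.97, SE 0.168, adjusted p = 4.42e-06), Mxi1 (1.65, SE 0.115, adjusted p = 6.23e-07), Mnt (1.33, SE 0.175, adjusted p = 0.000157) and Mxd1 (1.06, adjusted p = 0.0185) encode repressors that compete with Myc for Max, and Mycl (0.76, adjusted p = 0.00473) is a Myc family member. Max, the shared partner, changed by -0.36 without passing the test. The network's median change was -0.05, against -0.03 over all named genes, and 8 of the 15 were below 0. By limma 0 of the 15 were called with 1,25D at 6 h or at 48 h, and 2 and 3 had an unadjusted p under 0.05, among them Mxd1 at 6 h (-0.62, adjusted p = 0.79) and Mxd4 at 48 h (-0.49, adjusted p = 0.276).

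Lists of related genes were set against the same shares of all named genes, 8.75% called lower and 9.84% called higher with time. Of 96 further ribosome biogenesis factors, 72 fell and 0 rose with time in vehicle (median -0.72), led in significance by Utp4 (-1.14), Mak16 (-1.07) and Urb1 (-1.67). Of 34 known Myc targets outside the ribosome, 26 fell and 1 rose (median -0.73): ornithine decarboxylase Odc1 (-1.16, adjusted p = 2.9e-07), the nucleotide exchange factor Rcc1 (-1.65) and the spermidine synthase Srm (-1.95) fell, and the lactate dehydrogenase Ldha rose (0.45, adjusted p = 0.000128). Among 9 further polymerase I genes 3 fell, 1 rose and 5 did not pass the test (median -0.21): the initiation factor Rrn3 (-0.94), Taf1c (-0.77) and Taf1a (-0.93) were lower, and Taf1b (1.18, adjusted p = 0.00126) was higher.

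Of 45 measured genes for cytosolic ribosomal proteins, 3 fell (Rps25, -1.17; Rpl12, -1.21; Rpl14, -0.90) and 0 rose, where 8.75% of all named genes were called lower, and the median was -0.02. Their mean signal was 12.52 to 12.61 on vehicle arrays at 48 h, against 12.62 to 12.67 at 6 h. These signals are near the top of the array's range, where a fall could be understated, so the values do not show that the transcripts were unchanged. Many have near-identical pseudogenes, so single members are uncertain. Proliferation genes moved with the members: 17 of 17 fell (median -0.95), with Ccna2 (-1.21) and the ribonucleotide reductase subunit Rrm2 (-1.18) giving the smallest p. Their mean signal was 9.93 to 10.08 on vehicle arrays at 48 h, against 10.84 to 10.93 at 6 h, and their part in the decline was not tested. Under 1,25D, 0 genes of these lists were called at 6 h by limma, though without the 2 arrays that stand apart 1 further ribosome biogenesis factor was lower and 1 further polymerase I gene higher, and at 48 h the calls were Ccna2 and the transferrin receptor gene Tfrc, a Myc target (-0.45, adjusted p = 0.0374).

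**Figure D4:**
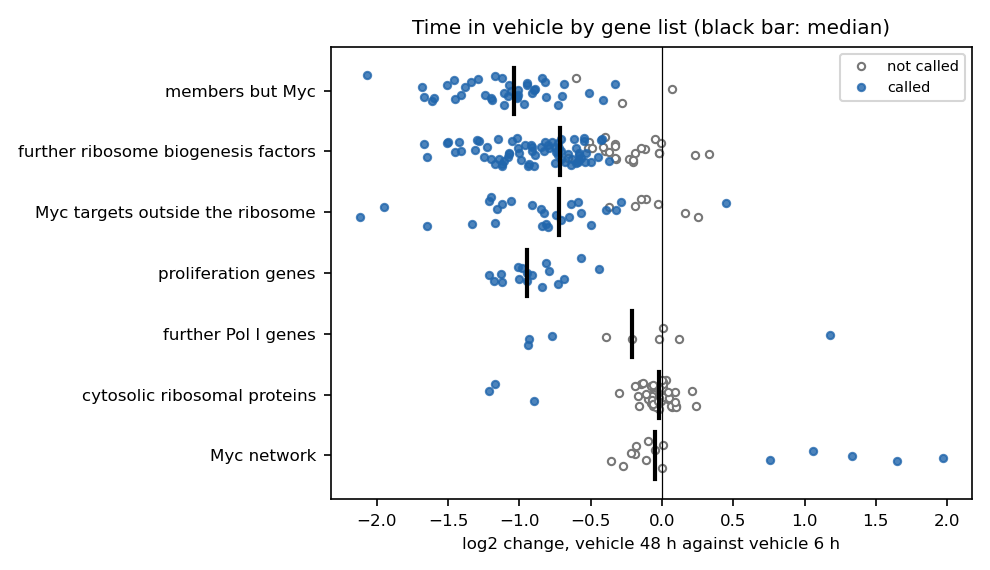
Log2 change between vehicle at 48 h and vehicle at 6 h for each gene (points) of 7 lists, with list medians as black bars and genes past an adjusted p of 0.05 filled. Ribosome biogenesis factors, Myc targets and proliferation genes lie mostly below 0, ribosomal proteins centre at -0.02, and 5 genes of the Myc network lie above 0.5.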

How the data were processed

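Total RNA (5 ug per sample) was hybridised to 1 Affymetrix array each, per the labels' protocols. The authors' deposited table holds log2 signals for 45101 probe sets, more than the A chip named in the design text would give; the submitters' processing notes name MAS5 with no version or role, and how the arrays were scaled is not given in the sources used here. After 64 control sets were removed, 45037 probe sets were fitted in limma 3.58.1 (R 4.3.3) as 4 group means over all 13 arrays, with eBayes and an intensity trend; p-values are two-sided and adjusted by Benjamini-Hochberg over all of them. Probe sets were named from the platform annotation: 34945 had 1 symbol, 932 several and 9160 none. 34741 entrez identifiers matched the GRCm38.p6 table and no symbol changed. Values needed no offset. No array coordinates are given; promoter windows are RefSeq's. Of 366 list entries 315 were measured; the rest were not analysed here. Members and lists were chosen with earlier results of these data known. Named members were Myc, up to 10 called members per comparison by smallest p, and the extremes of each role at 6 h and 48 h; context genes were the 3 with the smallest p per list, and any others named were chosen after their values were seen. On data simulated for 1,25D at 6 h over 18193 genes, 79 of 100 log2 changes of 1 and 99 of 100 of 2 were recovered with 6 false calls. At 48 h 87 and 100 were recovered with 16 false calls. Changes smaller than 1, which include those of all members with 1,25D, were not simulated. The simulated p-values were adjusted over 18193 genes and not over 45037 probe sets. Alternatives were an offset of 32, quantile normalization, median centring, no or robust trend, leaving out dim (lowest 40%) or cross-matching probe sets, other probe sets per gene, fitting only the groups compared, array weights, the replicate number as a block, and leaving out arrays. Array pairs correlated at 0.951 to 0.9974, and none were identical. Permutation tests used scipy 1.17.1 (Python 3.11.15), and figures matplotlib 3.10.9. The number of arrays limits the precision.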

Additional observations from a re-analysis of the deposited data

Results flagged for a closer look

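The response of Myc to 1,25D differed between the times: the log2 change at 48 h minus that at 6 h was 0.82 (adjusted p = 0.0217 in limma, lost with median centring at 0.057 and without any of 6 single arrays at 0.0515 to 0.0844), with all 4 treated arrays above all 3 vehicle arrays at 48 h and all 3 treated arrays below all 3 vehicle arrays at 6 h.

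Among the 4 arrays of 1,25D at 48 h, a single array lay far from the others in 2 of 45 members tested, and chance alone gives such a gap in about 1 of 20 such groups. Polr1b read 7.77 on replicate 2, against 7.38 to 7.39 on the other 3. Nop58 read 8.58 on replicate 4, one of the arrays that stand apart, against 8.88 to 8.90 on the others.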

How the results depend on the processing

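Over time in vehicle, between 30 and 43 members were called lower and 0 higher under every alternative run, and 39 to 42 when single arrays were left out. The 1 call at 6 h, Myc, became 0 when only the compared groups were fitted, and 0 to 1 when single arrays were left out. The 1 call for the difference between responses became 0 with median centring, 0 with the replicate block and 0 to 1 when single arrays were left out. The causes of these losses were not tested. At 48 h 0 members were called under every alternative. The labels do not say whether same-numbered arrays of different groups were paired. Their deviations correlated above 0.1 in 7 of 18 pairs (-0.543 to 0.482), which cannot settle it with so few arrays per group. With the replicate block, Myc was again called at 6 h and had an adjusted p of 0.0511 for the difference, and 41 members were again called lower over time. Median changes over the members kept within -0.13 to -0.03 for 1,25D at both times when single arrays were left out. The table used here has no detection call, so signal over background is unknown for single arrays.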
